A study of Mus musculus and Homo sapiens with 15 samples.

Results

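The genes described here are those of the proteasome in HEK293XT cells. They were chosen by symbol: every gene named in the label of an edit cluster whose symbol begins with PSMA, PSMB, PSMC, PSMD or PSME followed by a digit. The rule found 44 of the 18756 genes that carried a cluster in at least 1 of 6 libraries. All 6 libraries were enzyme-only controls of INSCRIBE, in which fixed cells are treated with a recombinant fusion of APOBEC1, a cytidine deaminase, and a nanobody. No antibody was present in these libraries, so the enzyme was not directed to any RNA-binding protein. The listed C-to-U conversions, called edits here, are the background of the method. Per the study, buffer-only controls also give such calls, from damaged RNA or from errors of reverse transcription or PCR. No buffer-only library of these cells was among the samples, so these calls cannot be told apart from edits by the enzyme. HEK293XT is labelled as an immortalized kidney line, and the study fixed such cells in methanol or paraformaldehyde; which of them these libraries had is not in the labels. The libraries were made from 1 ng (3 libraries) or 100 pg (3 libraries) of RNA, and no other agent or allele separates the groups. The comparison asks how the control profile of these genes differs between the 2 input amounts. Per the study's methods, replicates were run on separate slides of the same line, and its figure legends call INSCRIBE replicates technical. Whether both input amounts were drawn from the same extracts is not stated. The p-values thus measure the spread between these libraries and not between biological replicates. In bulk RNA, more transcript per cell and more cells with the transcript cannot be told apart.

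The proteasome is the main protease of the cytosol and nucleus and degrades proteins tagged with ubiquitin. Its 20S core is a barrel of stacked rings, with alpha subunits (PSMA genes) forming the gate and beta subunits (PSMB genes) holding the proteolytic sites inside. The 19S cap carries a ring of ATPases (PSMC genes) that unfold substrates, and non-ATPase subunits (most PSMD genes) that bind and remove ubiquitin. Activators (PSME genes) can replace the cap.

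Of the 44 symbols, 39 were proteasome subunits, assembly chaperones or activators. They comprised 8 alpha genes, 7 constitutive beta genes, the inducible beta subunit PSMB10, 6 ATPases, 11 non-ATPases, the chaperones PSMD9 and PSMD10, and 4 activators. The other 5 were not proteasome proteins: PSMC3IP, a meiotic recombination factor; PSME3IP1, a partner of PSME3; the antisense RNA PSMA3-AS1; and the pseudogenes PSMC1P1 and PSMD4P1. Without PSMC3IP and PSME3IP1, 43 annotated protein-coding genes have such symbols. The remaining 4 of them, PSMB8, PSMB9, PSMB11 and PSMD5, had no cluster and no filtered edit site in any library. PSMB8 and PSMB9 are, like PSMB10, subunits of the immunoproteasome, which interferon induces, and PSMB11 belongs to the thymus.

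Across all genes the 1 ng libraries held 23889 to 31947 clusters with 49903 to 69817 edited bases, and the 100 pg libraries held 15474 to 16731 clusters with 73811 to 76683 edited bases. An edited base is 1 C-to-U read at 1 position, and target bases are all reads over the C positions of a cluster. Total mapped reads were not used here, so coverage is known only where a cluster or site was called. Of the markers checked, VIM had edited reads in 6 of 6 libraries and KRT18 in 5, PAX2 in 1, and 8 genes of blood, liver and glia had 1 edited read at sites assigned to them, in MBP. The blood gene CD74 was named in the label of 2 clusters, with no edited read at a site assigned to it.

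The proteasome genes had fewer clusters but more edited bases at 100 pg. Their clusters numbered 106, 135 and 126 in the 1 ng libraries and 100, 99 and 96 in the 100 pg libraries. The edited bases in them were 241, 377 and 320 at 1 ng (mean 313 ± 68.3, SD, n = 3) and 845, 641 and 540 at 100 pg (675 ± 155, n = 3). Both measures separated the groups with no overlap. Over all genes clusters also fell, to a ratio of means of 0.556 against 0.804 here, so the proteasome genes held a larger part of the library's clusters at 100 pg (0.574% to 0.646%) than at 1 ng (0.414% to 0.444%). A cluster of these genes held 2.54 ± 0.26 edited bases at 1 ng and 6.85 ± 1.45 at 100 pg, against 2.12 ± 0.056 and 4.72 ± 0.28 over all genes.

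Relative to each library's total, the genes took 0.483%, 0.54% and 0.503% of all edited bases at 1 ng and 1.1%, 0.851% and 0.732% at 100 pg. The 3 values at 100 pg all lay above the 3 at 1 ng, with a ratio of means of 1.76. The sum over genes chosen with earlier results known carries no p-value. The share did not overlap either among the 39 proteasome proteins alone (ratio 1.83), in exon clusters alone (1.83) or without PSMD10 (1.69), whose edited bases lay mostly in 1 library. Other gene families give a scale for this, with no test between them. Nuclear oxidative phosphorylation genes (74) took 0.456% to 0.657% at 1 ng and 1.37% to 1.45% at 100 pg. The CCT chaperonin (8 genes) took 0.0708% to 0.166% and 0.348% to 0.64%, and ribosomal proteins (78 genes) 0.667% to 0.798% and 0.73% to 0.919%.

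**Figure D1:**
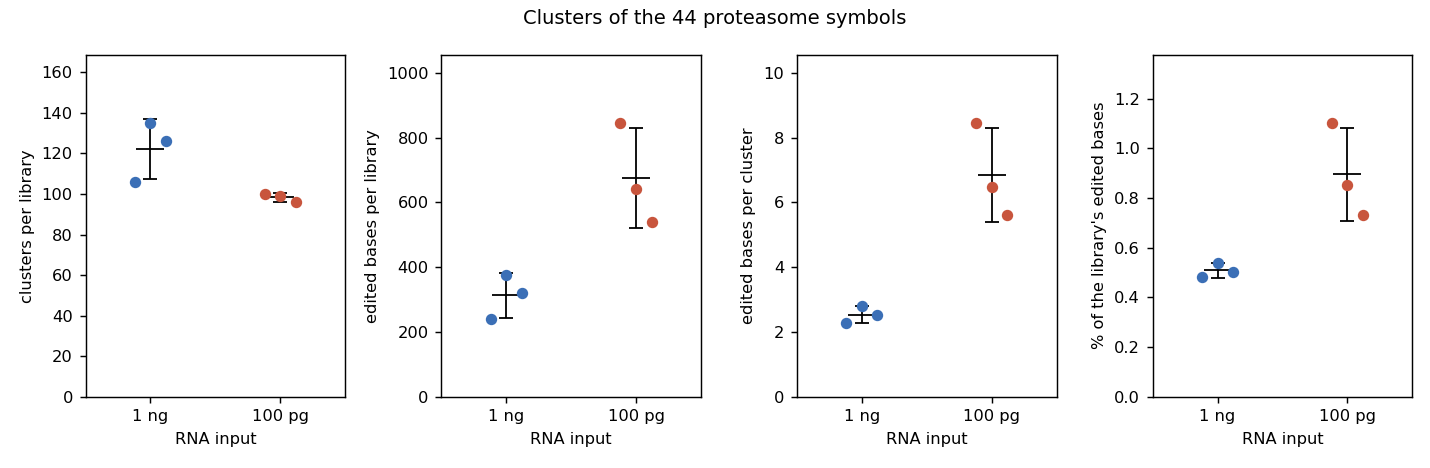
Clusters, edited bases, edited bases per cluster and the percentage of the library's edited bases for the 44 proteasome symbols, by RNA input; points are libraries, bars the mean ± SD of 3. Clusters lie at 106 to 135 against 96 to 100, and edited bases at 241 to 377 against 540 to 845.

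The share of target bases that was edited did not separate the groups. It was 0.297%, 0.264% and 0.308% at 1 ng and 0.377%, 0.346% and 0.273% at 100 pg. Target bases themselves were 81195, 143019 and 104054 at 1 ng and 223923, 185457 and 198028 at 100 pg. Reads over the C positions were thus higher at 100 pg together with the edited bases, with no overlap. In all genes the edited share ran from 0.589% to 0.615% at 1 ng and from 0.63% to 0.652% at 100 pg, above the proteasome genes in every library.

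Coverage moved with that difference. The median read depth of exon clusters of the proteasome genes lay between 152 and 249 at 1 ng and between 334 and 428 at 100 pg, against 54.9 to 62.3 and 80.8 to 81.8 in all genes. Over the clusters of the proteasome genes, the edited share fell as the covering reads per C position rose. Spearman's rho was -0.81 over 367 clusters at 1 ng and -0.65 over 295 at 100 pg, with no p because clusters share genes and libraries. The number of covering reads is the denominator of the share, and a cluster with few reads must have a high share to be listed at all. The part of depth in the lower edited share of the proteasome genes was not tested.

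**Figure D2:**
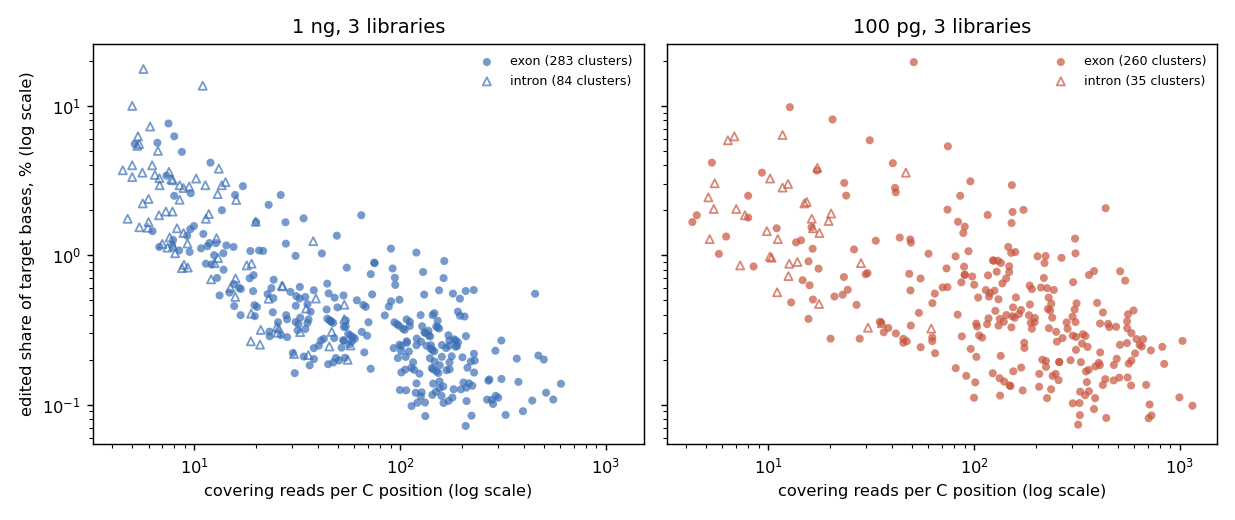
Edited share of target bases (%, log scale) against covering reads per C position (log scale) for every cluster of the 44 symbols; filled circles are exon and open triangles intron clusters, each panel pools 3 libraries. The share falls with coverage in both panels, and the 84 intron clusters at 1 ng and 35 at 100 pg lie mostly at low coverage.

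Fewer of the clusters lay in introns than over all genes. Intron clusters numbered 15, 34 and 35 of the proteasome clusters at 1 ng, or 14.2% to 27.8%, and 8, 16 and 11 at 100 pg, or 8.0% to 16.2%. Over all genes the figures were 26.6% to 30.6% and 29.8% to 31.3%. The difference was not tested. In exon clusters, covering reads per C were 0.479 to 0.494 of the depth column. In intron clusters that ratio was 0.0257 to 0.183, so the 2 measures of coverage disagreed there. Genes are therefore ordered by depth in exon clusters alone, while the test of depth used all clusters unless exon clusters are named.

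Few edited positions came back in a second library. A site is a single edited C with a score above 0.5 and an edited fraction below 0.8, the limits the study used. The genes held 744 such positions, of which 712 (95.7%) were listed in 1 library, 28 in 2, 4 in 3 and none in more. Over all genes 96.9% of 155290 positions were in 1 library. Of the 32 positions seen again in the proteasome genes, 22 followed an A and 29 an A or a U, the neighbours APOBEC1 prefers. Among all 744 positions, 46.8% followed an A and 78.5% an A or a U, and the difference was not tested.

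The 8 positions that recurred most are printed below on the strand of the gene, 5′ to 3′, from hg38, with the edited C in capitals and 10 bases on each side. They were ranked by the number of libraries, then by edited reads. The first 4 were listed in 3 libraries and the rest in 2, and 7 of them lie in coding sequence and PSMB2's in the 3′ UTR.
PSMD1, chr2:231161407, + strand: ctgtggttggCgtccttgtat
PSMD14, chr2:161395123, + strand: aggtttgacaCttcaggacta
PSMD6, chr3:64019428, - strand: ggagctctgaCagcctttcgc
PSMD2, chr3:184308763, + strand: gggttccagaCgcatacaacc
PSMC1, chr14:90263413, + strand: aaatcaggaaCaaatgaaacc
PSMD6, chr3:64010951, - strand: aattagggaaCtgtccaggtt
PSMB2, chr1:35601879, - strand: cttagcataaCtttagggaac
PSMC2, chr7:103368044, + strand: cgttacatgaCatacaactga

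An A preceded the edited C at 7 of the 8 and a G at the PSMD1 site. The PSMD1 position was edited in 5 of 146 reads in 1 ng replicate 2, 9 of 160 in 1 ng replicate 3 and 6 of 155 in 100 pg replicate 2. These are 3.42% (95% Wilson interval 1.47 to 7.77), 5.62% (2.99 to 10.3) and 3.87% (1.79 to 8.19), and the intervals overlap. The intervals cover counting error only, since PCR copies of a molecule were not removed. The PSMD14 position, in a deubiquitinase of the cap, was edited in 2 of 127 and 4 of 184 reads in 1 ng replicates 1 and 3 and in 9 of 304 in 100 pg replicate 1. PSMC1 was the most uneven, with 2 of 133 reads in 1 ng replicate 2 and 13 of 106 in 100 pg replicate 1.

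The positions with the most edited reads were different from these, except for PSMD1's, which had 20 over 3 libraries. The next examples were picked after their values were seen, to show single positions with many edited reads in 1 library. Each was listed in that library alone.
PSMA4, chr15:78541920, + strand: atataaagttCagaaaacatg
PSMB5, chr14:23025945, - strand: acattgacctCtatgtgttac
PSMD10, chrX:108084867, - strand: gaagttttctCaccttcaaag

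The PSMA4 position, annotated as 5′ UTR, was edited in 20 of 884 reads in 100 pg replicate 2. Those 20 were all the edited bases of PSMA4 in that library. The PSMB5 position, in the 3′ UTR, was edited in 20 of 593 reads, also in 100 pg replicate 2, where PSMB5 had 71 edited bases. The PSMD10 position, in the 3′ UTR, was edited in 20 of 235 reads in 100 pg replicate 1. It lay in a cluster (chrX:108084763-108084987) with 78 of the 135 edited bases that PSMD10 had in that library.

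Sites in the 41 protein-coding members fell in coding sequence (46.2% of calls), 3′ UTRs (29.7%), introns (14.6%), exons of non-coding transcripts (5.35%) and 5′ UTRs (4.17%). Counted against the C positions of the canonical transcripts, they came to 34.5 calls per 1000 C in coding sequence, 29.7 in 3′ UTRs and 28.7 in 5′ UTRs. An A or U preceded 78.0% of the coding, 84.2% of the 3′ UTR and 50.0% of the 5′ UTR calls. By library, the C followed an A or U in between 80.4% and 82.9% of sites at 1 ng and between 69.7% and 80.0% at 100 pg. In all genes it was 75.7% to 76.6% and 63.0% to 64.6%. On the opposite strand of the same genes 33 to 52 sites per library were listed, with an A or U before 50.0% to 61.5%.

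The study kept clusters present in all 3 replicates of a group and then removed those also found in buffer-only controls. The deposited lists come in a confident and a shorter cleaned version, and the labels do not say which step separates them. The confident list of 762 clusters at 1 ng held 2 in proteasome genes: PSMD3 (chr17:39984415-39984459) and PSMC4 (chr19:39972162-39972206). PSMD3 is a non-ATPase subunit and had 1, 3 and 2 edited bases in the 1 ng libraries. PSMC4, an ATPase, had 2, 6 and 4. The 100 pg list of 242 held 3: PSMA1 (chr11:14514421-14514465), PSMD14 (chr2:161395109-161395153) and PSMB1 (chr6:170535181-170535285). PSMA1 had 9, 8 and 3 edited bases there in the 100 pg libraries and PSMD14 had 16, 7 and 9. Within the listed PSMB1 interval the 100 pg libraries had 10, 0 and 26 edited bases. Replicate 2 had 7 edited bases beside it, in a window joined only by chaining overlapping windows. All 5 also stood in the cleaned lists of 637 and 199 clusters. No proteasome cluster was in both lists, although PSMD14 also had 2 and 4 edited bases there in 1 ng replicates 1 and 3. That window holds the recurring PSMD14 position printed above. Clusters that overlapped between any libraries made up 104 of 528 windows in these genes (19.7%), against 12.6% over all genes.

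Both core rings took a larger share of the library at 100 pg. The alpha genes held 39 to 47 edited bases at 1 ng and 162 to 172 at 100 pg. As a share of the library this was 0.0705% ± 0.0066 and 0.222% ± 0.0059, a ratio of 3.15. The constitutive beta genes took 0.0653% ± 0.0067 and 0.175% ± 0.041 (ratio 2.68), again without overlap. Target bases of the alpha genes were 6743 to 18218 and 50759 to 57953, and their edited share of target bases overlapped between groups (0.214% to 0.623%, and 0.288% to 0.319%). Introns held 40.0% to 82.4% of the alpha clusters at 1 ng and 31.8% at most at 100 pg. In exon clusters alone the edited share ran between 0.179% and 0.23% for 1 ng, below the 0.271% to 0.304% for 100 pg. The 1 ng values rested on 9, 8 and 3 exon clusters. Over all genes the exon share was apart too, at 0.489% to 0.517% for 1 ng and 0.554% to 0.584% for 100 pg.

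The ATPases of the cap took 0.0673% ± 0.019 at 1 ng and 0.107% ± 0.051 at 100 pg, and the groups overlapped. The non-ATPases took 0.193% ± 0.027 and 0.248% ± 0.037 (ratio 1.28), with 0.219% as the lowest value at 100 pg and 0.209% as the highest at 1 ng. Their edited share of target bases was also apart, at 0.266% to 0.35% for 1 ng and 0.371% to 0.612% for 100 pg. Over all genes that share was apart too. The activators took 0.0488% ± 0.014 and 0.0504% ± 0.041, a ratio of 1.03. The assembly chaperones took 0.024% on average at 1 ng and 0.0637% at 100 pg (ratio 2.65), but ranged from 0 to 0.176% at 100 pg, the highest value being that of PSMD10 in 1 library. The difference between roles was not tested.

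**Figure D3:**
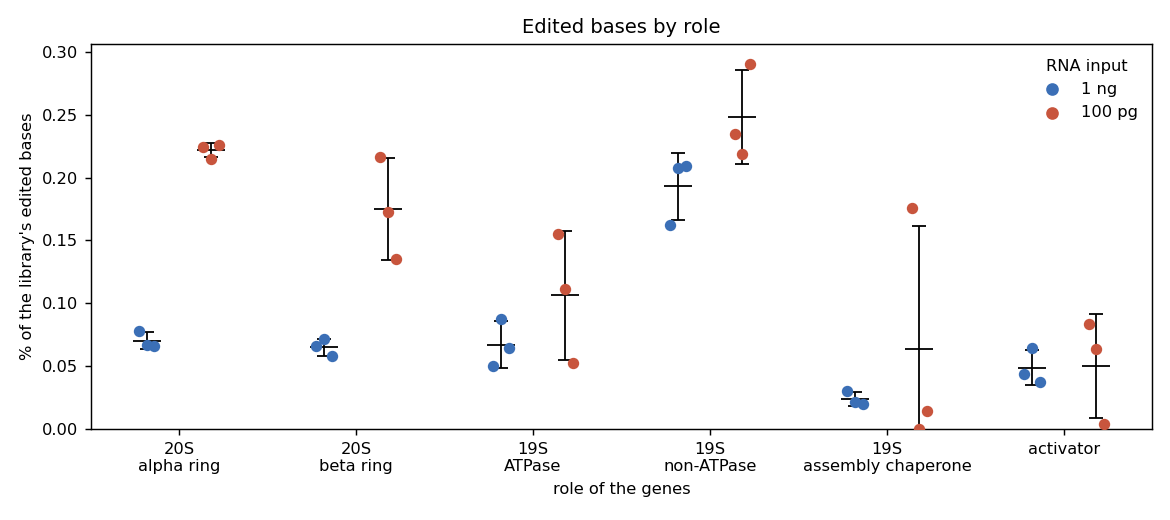
Percentage of each library's edited bases in genes of 6 proteasome roles; points are libraries, bars the mean ± SD of 3 per input. The alpha ring lies at 0.0705% on average for 1 ng and 0.222% for 100 pg, and the activators overlap.

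The genes of the alpha ring with the most edited bases were PSMA1, PSMA6 and PSMA3. PSMA1 had 9, 12 and 22 edited bases at 1 ng and 41, 36 and 25 at 100 pg, in windows whose label also named a readthrough or overlapping gene in 37 of 38 cases. PSMA6 had 7, 7 and 3 against 6, 33 and 51. Labels of 12 of its 14 clusters also named another gene. The 3 edited bases of 1 ng replicate 3 lay at chr14:35214888-35214932, outside the annotated gene (chr14:35278633-35317493). Reads at sites assigned to PSMA6 numbered 5, 4 and 0 at 1 ng and 6, 33 and 48 at 100 pg. PSMA3 had 9, 8 and 2 against 42, 16 and 26. By count PSMA1 and PSMA3 were higher in every 100 pg library, and PSMA6 overlapped because of 100 pg replicate 1. As a share of the library PSMA1 overlapped too. PSMA8, a testis form of an alpha subunit, had 1 to 6 edited bases per library and 7 clusters, all in introns.

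PSMB5, which carries the chymotrypsin-like site of the core, had 1, 8 and 0 edited bases at 1 ng and 38, 71 and 11 at 100 pg. PSMB2 had 29, 12 and 12 against 23, 16 and 25, and PSMB1 2, 4 and 8 against 11, 12 and 32. Neither PSMB2 nor PSMB1 holds a proteolytic site. PSMB5 and PSMB1 separated the groups and PSMB2 did not. PSMB10 had 4, 1 and 4 edited bases at 1 ng and 0, 6 and 0 at 100 pg.

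Of the ATPases, PSMC6 had 11, 27 and 13 edited bases at 1 ng and 49, 23 and 2 at 100 pg. PSMC2 had 3, 6 and 17 against 30, 0 and 9, and PSMC5 1, 6 and 3 against 4, 29 and 14. The groups overlapped for each of these. Among the non-ATPases, the scaffold subunit PSMD12 had 11, 22 and 24 against 26, 23 and 47. PSMD1, the large scaffold of the cap, had 30, 19 and 27 against 18, 6 and 28, and its clusters numbered 15, 7 and 10 against 3, 1 and 4, with no overlap. PSMD14 had 4, 15 and 11 against 49, 10 and 35. Only the cluster count of PSMD1 separated the groups among these.

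The chaperone PSMD10, also called gankyrin, had 9, 13 and 9 edited bases at 1 ng and 135, 0 and 11 at 100 pg. PSMD9, another chaperone of the cap, had 6, 2 and 4 at 1 ng and none in any 100 pg library. Its windows were all shared in the label with an overlapping gene. PSME4, a large nuclear activator, had 7, 18 and 15 against 0, 1 and 1, in 5, 10 and 11 clusters against 0, 1 and 1. PSME3, the nuclear activator of the other family, had 7, 23 and 7 against 53, 37 and 2, and PSME2 had 4, 3 and 0 against 1, 10 and 0. PSME4 and PSMD9 were lower in every 100 pg library.

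Of the symbols that are no proteasome protein, PSME3IP1 had 8, 3 and 14 edited bases at 1 ng and 0, 34 and 3 at 100 pg. PSMC3IP had 12, 4 and 3 against 0, 8 and 2, and PSMA3-AS1 1, 5 and 9 against 6, 3 and 1. Groups overlapped for all of them. Of the 19 clusters of PSMA3-AS1, 11 shared their label with another gene, and with a kit that does not keep strand its reads cannot be told apart from those of overlapping genes. The pseudogenes PSMC1P1 and PSMD4P1 reached at most 3 edited bases in a library. Reads could be split between PSMC1P1 and its parent gene. The only PSMD4P1 cluster, at chr21:36470447-36470491, shared its label with another gene and lay outside the annotated pseudogene (chr21:36485983-36487411). The remaining members had 0 to 46 edited bases per library, in 2 (PSMA7) to 6 libraries.

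**Figure D4:**
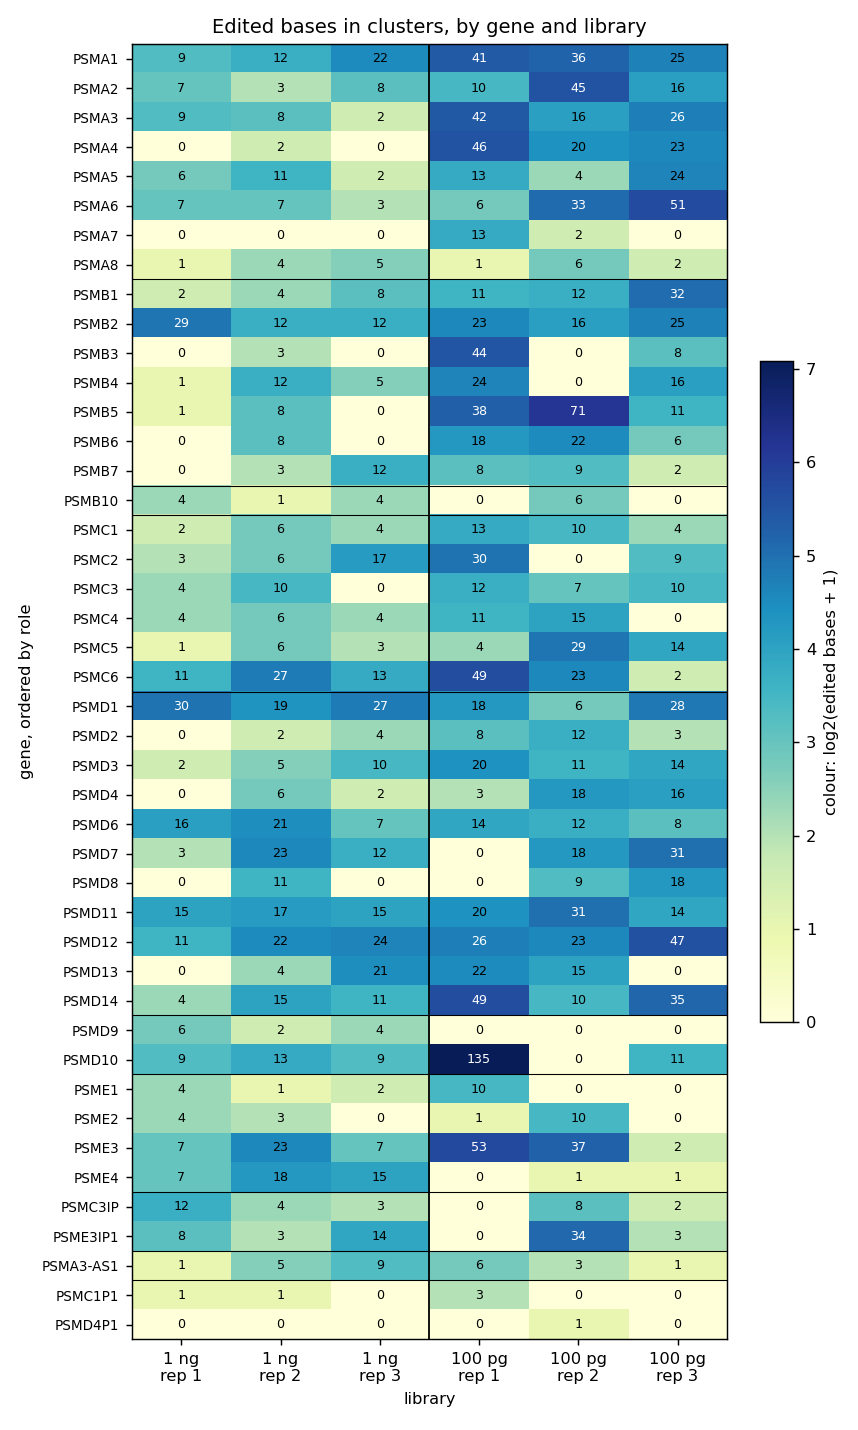
Edited bases in clusters for each of the 44 symbols (rows, ordered by role, lines between roles) in each library (columns); the number is the count and the colour its log2 after adding 1. Counts are not scaled to the library, whose total was higher in every 100 pg library. As a share of the library, PSMA3, PSMA4, PSMB1 and PSMB5 are higher in every 100 pg library (2.15% of all genes are), and PSMD9 and PSME4 in every 1 ng library (10.5%).

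As a share of the library, 4 of the 44 genes (PSMA3, PSMA4, PSMB1 and PSMB5) were higher in all 100 pg libraries than in any 1 ng library, where 2.15% of all genes were. PSMD9 and PSME4 were lower in all of them, where 10.5% of all genes were. No test was made of these counts. For clusters per gene, none was higher in all 100 pg libraries (0.709% of all genes), and PSMD1, PSMD9 and PSME4 were lower in all of them (10.4%).

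No proteasome gene passed the test in any of the 4 comparisons fitted across all genes. For edited bases, edgeR's quasi-likelihood test with Benjamini-Hochberg adjustment called 8 of 2578 genes (0.31%), all higher at 100 pg, and 0 of the 20 proteasome genes that passed the filter on low counts. At an unadjusted p below 0.05 it held 3 of the 20, against 9.78% of all genes, and DESeq2 called 2 (PSMA4 and PSMB5) where it called 4.27% of all genes. For edited reads at filtered sites, it called 5 of 2141 genes (0.234%) and 0 of 22 proteasome genes. Here 4 of the 22 had an unadjusted p below 0.05, against 9.76% of all genes, and DESeq2 called 3 (PSMA4, PSMB5 and PSME4) where it called 4.39%. A gene that passed the filter only through the group where it was high had to differ, so no median over these genes is given. This holds for PSMA4, PSMB5 and PSMB1, high at 100 pg, and for PSME4, high at 1 ng. The edgeR values of PSMB1 and the DESeq2 calls of PSMA4, PSMB5 and PSME4 are thus descriptions. Of the other families, edgeR's test of edited bases called 1 of 25 oxidative phosphorylation genes, 0 of 11 ribosomal protein genes and 0 of 8 CCT genes, and DESeq2 called 8, 1 and 2 of them.

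The smallest p-value belonged to PSMA4, an alpha subunit at chr15:78540405-78552417, named here after its values were seen. It had 0, 2 and 0 edited bases at 1 ng and 46, 20 and 23 at 100 pg. The 2 at 1 ng lay in an intron, in a window of 54 target bases, while the 100 pg windows held 19309, 2564 and 11807 target bases. PSMA4 passed the filter on low counts through the 100 pg libraries alone, so its log2 change of 5.10 ± 1.21 (SE) and adjusted p of 0.0889 by edgeR are a description. PSMB5 (chr14:23016543-23035230) followed with 3.55 ± 1.06 and an adjusted p of 0.189 by edgeR. For edited reads PSME4 had a log2 change of -4.25 ± 1.30, with an adjusted p of 0.236 by edgeR. PSMB5 passed the filter through the 100 pg libraries alone and PSME4 through the 1 ng libraries alone, so these values are descriptions too. A gene with no cluster has no listed coverage, so a count of 0 is not an edited share of 0.

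**Figure D5:**
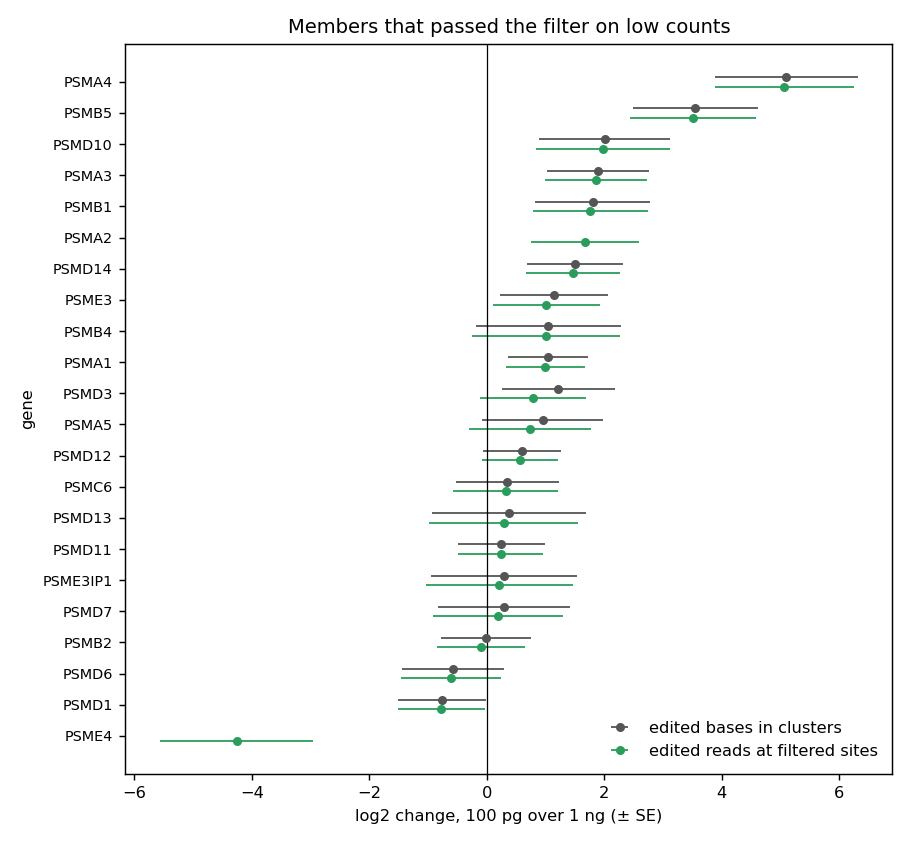
Log2 change of 100 pg over 1 ng with its SE for the proteasome genes that passed the filter on low counts, 20 for edited bases in clusters (grey) and 22 for edited reads at filtered sites (green), from edgeR fits on 3 libraries a group. PSMA4 and PSMB5 lie highest and PSME4 lowest, and none passed an adjusted p of 0.05. Each of these named genes passed the filter through a single input group.

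Read depth at the clusters differed widely between the genes. The median over their exon clusters was 209 ± 50.5 at 1 ng and 374 ± 48.9 at 100 pg, so the genes are ordered within the 100 pg libraries only, over the 25 with an exon cluster in all 3 of them. PSMB1 had the highest mean depth, 1743 ± 669 (SD, n = 3), then PSMA4 with 1564 ± 227. These neighbours differed by less than their spread, as did PSMA2 (1241 ± 64.4) and PSMB5 (1203 ± 105), and PSMB6 (907 ± 134) and PSMA5 (814 ± 113). Core genes thus stood at the top of the order, but other core genes had lower means than the cap gene PSMD4. These were PSMA1 (654 ± 179), PSMA6 (641 ± 124), PSMA3 (590 ± 147), PSMB7 (546 ± 298) and PSMB2 (407 ± 88.5). The cap genes ran from PSMD4, a ubiquitin receptor, at 757 ± 133 to PSMD2, a scaffold subunit, at 122 ± 15.3. PSMD6 lay at 293.8, 297.6 and 296.5 and PSMC6 at 293 ± 15.8, which did not differ beyond their spread. Depth is per base and so is not set by gene length, but it was read only where a cluster was listed.

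Depth and edited share were tested in genes with a cluster in all 6 libraries. Of the 44 genes 19 qualified (43.2%), against 3914 (20.9%) of all genes. limma called 2 of the 3914 for mean depth (0.0511%) and 1 for the edited share (0.0255%), and 0 of the 19 in each. An unadjusted p below 0.05 was found for 4 of the 19 for depth, against 9.73% of all genes, and for 1 of the 19 for the share, against 12.5%. The 4 were PSMA2, PSMA6, PSMA1 and PSMB2. Introns held 21 of the 38 clusters of PSMA1 and 5 of the 14 of PSMA6. All 11 clusters of PSMA2 and 12 of the 14 of PSMA6 shared their label with another gene. In exon clusters alone 15 of the proteasome genes could be tested, and PSMA2 was the 1 with an unadjusted p below 0.05 by limma, against 9.07% of all genes. PSMA2 had the smallest p, with a log2 change in depth of 1.73 ± 0.36 and an adjusted p of 0.258 by limma. The median change in depth was 0.38 over the 19 genes and 0.26 over all genes tested.

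PSMB1 shows how windows differed between inputs. Its edited share was 1.68%, 0.36% and 1.06% at 1 ng and 0.121%, 0.463% and 0.12% at 100 pg, a log2 change of -2.19 ± 0.77 with an adjusted p of 0.341 by limma. Its target bases were 119, 1111 and 754 against 9114, 2590 and 26572, while its depth column changed by 0.08 ± 0.34 on the log2 scale. Of its 16 clusters 8 were in introns. With target bases per C in place of the depth column the log2 change was 4.91 and PSMB1 was called, with an adjusted p of 0.00825 by limma.

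Genes around the proteasome were looked up as a list of 30 that the rule did not cover: assembly factors, the inhibitor PSMF1, deubiquitinases, ubiquitin shuttles, VCP and its partners, the NFE2L1 pathway and ubiquitin genes. In edgeR's test of edited bases 12 were tested and none passed in either direction. At an unadjusted p below 0.05 it held 2 of the 12, against 9.78% of all genes, and DESeq2 called 1, against 4.27%. Together the 30 genes took 0.389% to 0.454% of a library's edited bases at 1 ng and 0.321% to 0.499% at 100 pg, and the groups overlapped. The 4 with the smallest p were POMP, UBQLN1, PSMF1 and UBE3C. POMP, the maturation factor of the core, had 10, 2 and 10 edited bases at 1 ng and 43, 30 and 42 at 100 pg. Its log2 change was 2.10 ± 0.79 with an adjusted p of 0.369 by edgeR, and its groups did not overlap. UBQLN1, a shuttle that carries ubiquitinated proteins, had 12, 25 and 10 against 3, 3 and 3, a log2 change of -2.50 ± 1.00 with an adjusted p of 0.414 by edgeR. PSMF1 had a log2 change of -2.17 ± 1.19 and UBE3C, a ubiquitin ligase, of -1.11 ± 0.66, with adjusted p of 0.622 and 0.663 by edgeR. UBQLN1 and PSMF1 passed the filter on low counts through the 1 ng libraries alone, so their values are descriptions.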

How the data were processed

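Enzyme-only libraries of HEK293XT cells were compared at 1 ng and 100 pg of RNA, with 3 libraries each. Per the study's methods, reads were single-end, trimmed, filtered for repeats and aligned to hg38 with STAR (2.4.0 in the submitters' processing notes). Edited sites were called there with SAILOR and clusters with FLARE (FDR 0.1, windows merged within 15 nt). The labels name an unstranded low-input kit and a stranded kit together, and the study used the former for low input. The labels list rRNA-depleted RNA, while the study's methods give total RNA as the input of that kit. Reads carried no molecular identifiers.

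The deposited cluster tables of the authors give counts of edited bases and of target bases, the edited fraction of target bases, the mean coverage (read depth) and a score for each cluster. The deposited site lists of the authors give a score with counts of edited and covering reads at each C. Confident and cleaned lists, which the authors made by intersecting replicates, were used for membership only. The labels do not say which of them had buffer-only clusters removed. The columns were used as deposited, and 0 columns of other samples were left aside.

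From these, values were summed per gene and library. Clusters were assigned by the gene symbols in their labels, with a cluster counted once in totals, and sites by GENCODE release 44 on their strand, with exons preferred and readthrough genes set aside. Of the sites, those scoring over 0.5 whose edited fraction was under 0.8 entered the counts. Counts of edited bases and edited reads were tested in edgeR 4.0.16 (quasi-likelihood, TMM, low counts filtered) and the log2 of depth and of edited share in limma 3.58.1, each over all genes, in R 4.3.3, with calls at an adjusted p under 0.05. The scripts were tested on simulated data. Alternatives were DESeq2 1.42.0, other filters and offsets, leaving out each replicate and a replicate block. Values in every library are given for any gene called and for the 3 genes of each role with the most edited bases, and PSMA4 and the single positions in PSMA4, PSMB5 and PSMD10 were added after their values were seen. The members, lists and tests were chosen with earlier results of these data known. Wilson intervals are at 95% and cover counting error only. Brain libraries of the series were not used here.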

Additional observations from a re-analysis of the deposited data

How the results depend on the processing

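The share of a library's edited bases in the proteasome genes, 1.76 times as high at 100 pg, stayed between 1.56 and 1.92 with each library left out and between 1.69 and 1.96 with other choices of clusters, always without overlap. Leaving out each library, the number of genes called was 0 to 6 for edited reads, 0 to 7 for edited bases, 0 to 4 for depth and 0 for the edited share, and no proteasome gene was called. The cause of the following changes was not tested. For edited reads, DESeq2 called 94 genes (3 proteasome genes), no filter on low counts 43 (2: PSMA4 and PSMB5), an offset of covering reads 91 (1: PSMB1, lower), every listed site 0 and sites in a single gene 1. PSMB1 passed the filter on low counts through the 100 pg libraries alone, so its call with the offset is a description. With every listed site the log2 changes of PSMA4, PSMB1 and PSMA2 turned to -0.67, -0.15 and -0.58, and with the offset those of PSMA3, PSMB1, PSMA1 and PSMA2 turned to -0.0087, -2.48, -0.31 and -0.79. For edited bases, DESeq2 called 110 (2 proteasome genes), no filter 41 (1: PSMA4), clusters with at least 2 edited bases 3, an offset of target bases 21, a cluster score above 0.95 5 and clusters with 1 gene 0. With the offset of target bases PSMB1 and PSMA1 turned to -1.99 and -0.40. For depth, genes called were 5 with clusters in at least 2 libraries a group, 4 with the median, 0 above a score of 0.95, 7 in exon clusters and 16 with target bases per C (1: PSMB1). For the edited share, they were 0 with clusters in at least 2 libraries a group, 0 at filtered sites and 2 above a score of 0.95. PSMD10 depended on 100 pg replicate 1: without it the log2 change was -1.11 for edited reads and -1.03 for edited bases, and without the others it reached 2.57 and 2.66. Over all settings the adjusted p ran from 0.0022 to 0.612 for PSMA4 and from 0.0051 to 0.73 for PSMB5 in edited bases, and from 0.0422 to 0.971 for PSME4 in edited reads. A test on clusters with an adjusted p under 0.05 was not run, since the per-library tables used here hold no p column.

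The correlation of deviations between libraries of the same replicate number was -0.013, 0.031 and -0.009 for edited reads. For edited bases it was -0.027, 0.013 and -0.014. Few positions came back in a second library, so this check cannot show whether the input amounts shared extracts. With the replicate block, genes called were 22 for edited reads, 28 for edited bases (1.09%), 3 for depth and 0 for the edited share. Among the 28 were 2 proteasome genes, PSMA4 (adjusted p 0.0391 by edgeR) and PSMB5 (0.0371).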
